A study of Mus musculus with 2 samples.

Results

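The expression of 10 genes was examined: the HMGA genes Hmga1 and Hmga2, the IGF2BP genes Igf2bp1, Igf2bp2 and Igf2bp3, the let-7 regulator Lin28b, the microRNA machinery genes Dicer1 and Ago2, and the further let-7 targets Arid3a and Nras. They were chosen by name, as classical targets of the microRNA let-7 and parts of the microRNA machinery, because the study names let-7 as cargo of the exosomes it worked with. All 10 names were found among the 44291 genes listed for both libraries, and the rule uses names only, though it was set with earlier results of these data known. The cells were FAPs (fibro-adipogenic progenitors), stromal cells that reside in muscle and are able to become adipocytes, taken as primary cells from WT mice. Per the study's methods they were sorted by flow cytometry from the hind limb muscles of C57BL/6 mice. The group called PRP had been treated with platelet-rich plasma and the group called control with vehicle, and both were cultured in adipogenic induction medium, which contains serum, IBMX, dexamethasone and insulin. Each group had 1 library from 1 culture. In the labels the agent is PRP, while the text of the study speaks of exosomes isolated from PRP of young human donors. The names PRP and control are used here as labelled. The labels do not give the age of the mice, the number of animals behind each culture or the time in induction medium.

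The let-7 microRNAs are short RNAs that are scarce in embryonic and undifferentiated cells and abundant in differentiated ones. Loaded on an Argonaute protein, a microRNA pairs through its seed, the bases near its 5′ end, with matching letters in the 3′UTR of messenger RNAs and lowers their stability or translation. LIN28 proteins bind let-7 precursors and block their processing, Dicer cuts the precursors into mature microRNAs, and the chromatin proteins HMGA1 and HMGA2, the RNA-binding IGF2BP proteins and RAS belong to the growth-promoting genes that let-7 is known to repress. In the mesenchymal lineage HMGA2 and IGF2BP2 are best known for their part in the growth of progenitor cells and in adipose and muscle biology.

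The microRNA sequences are shown first because the search for target sites rests on their seeds. They are the mouse mature sequences of RefSeq (GRCm38.p6), 5′ to 3′, with the seed, bases 2 to 8, in capitals. The same let-7 seed was shared by 11 mature mouse microRNA names and the miR-16 seed by 10. The study names let-7f-5p and miR-16-5p as exosome cargo, and let-7a-5p and miR-98-5p are given as relatives of let-7f-5p.
mmu-let-7f-5p: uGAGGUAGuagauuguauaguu
mmu-let-7a-5p: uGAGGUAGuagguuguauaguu
mmu-miR-98-5p: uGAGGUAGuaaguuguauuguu
mmu-miR-16-5p: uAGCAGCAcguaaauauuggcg

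The letters that pair with bases 2 to 8 of let-7 are CTACCTC. With an A after them they form the longest match, CTACCTCA. In the shorter match, TACCTCA, the letters TACCTC pair with bases 2 to 7 and the last letter is the A after them. The shorter match was counted only where it was not part of the longest one. All were searched on the transcript strand of the longest annotated 3′UTR of each gene (GENCODE M21, GRCm38). The strongest match of each gene that had one is printed below as 30 bases of the transcript, with the matching letters in capitals, since these are the letters through which let-7 would act on the gene. For Igf2bp1 all 3 of its longest matches are shown, as no other of the 10 genes had more than 1.
Hmga1, chr17:27563273-27563302, plus strand: cttctcctctgttcacaaaCTACCTCtgga
Hmga2, chr10:120364220-120364249, minus strand: ggcgccgacattcaatttCTACCTCAgcat
Igf2bp1, chr11:95961774-95961803, minus strand: agtgctgtgcgaagtaaaCTACCTCAaggt
Igf2bp1, chr11:95959353-95959382, minus strand: aaccagcagtgctattaaCTACCTCAgccc
Igf2bp1, chr11:95958759-95958788, minus strand: cgagtataaatggatgaaCTACCTCAgtcc
Igf2bp2, chr16:22059469-22059498, minus strand: aaaacacacaaataaaagCTACCTCAggtg
Igf2bp3, chr6:49086783-49086812, minus strand: acgtgcatttttactcaaCTACCTCAggta
Lin28b, chr10:45381018-45381047, minus strand: ttcacccgggcgggaagtCTACCTCAtgca
Ago2, chr15:73097978-73098007, minus strand: ttcttttacaatgtggatCTACCTCAgtta
Arid3a, chr10:79953892-79953921, plus strand: tgcaaggcaagtttctttCTACCTCAggtc
Nras, chr3:103064355-103064384, plus strand: tgagacctcttcagaataaCTACCTCctca

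Of the 10 genes, 9 held CTACCTC in the 3′UTR, with 21 matches in all. Among the 20082 genes with an annotated 3′UTR, 9.35% held CTACCTC, 3.19% held CTACCTCA and 7.42% held TACCTCA outside the longest match. Among 3′UTRs of like length to each of the 10 genes, from 0.8 to 1.25 times, the share with CTACCTC ran from 8.33% for Hmga1 to 46.2% for Ago2. Since the genes were picked as known let-7 targets, this excess describes the choice and is no finding. Hmga2, Igf2bp1 and Lin28b each held 4 CTACCTC matches, and only 4 of all genes held more. Ago2 held 3 such matches, in the longest 3′UTR of the group at 11064 bases. Arid3a held 2 such matches in 3082 bases, and Hmga1, Igf2bp2, Igf2bp3 and Nras held 1 each, in 1183 to 3727 bases.

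Dicer1 had none of the let-7 letters in the 3851 bases of its 3′UTR, which says only that these letters are not in this window. Among 3′UTRs of like length 20.9% held CTACCTC. The position of the matches varied as well. The longest match of Lin28b began 36 bases and that of Hmga2 58 bases after the start of the 3′UTR, whereas that of Ago2 lay 8919 bases in. In both Igf2bp1 and Igf2bp2 a second, shorter match stood close behind a longest one, at 1734 against 1715 bases in Igf2bp1 and at 1330 against 1313 bases in Igf2bp2. The letters TGCTGCT, which pair with bases 2 to 8 of miR-16, were found in 6 of the 10 genes with 8 matches, and in 20.9% of all 3′UTRs. Most of the 10 genes have long 3′UTRs, and among 3′UTRs of like length to theirs from 20.3% for Hmga1 to 74.4% for Ago2 held these letters. Hmga1 and Ago2 held 2 of these matches each, Igf2bp1, Igf2bp3, Lin28b and Nras held 1 each, and all 6 also held a let-7 match. A match is a description of sequence and was not tested as a binding site.

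**Figure D1:**
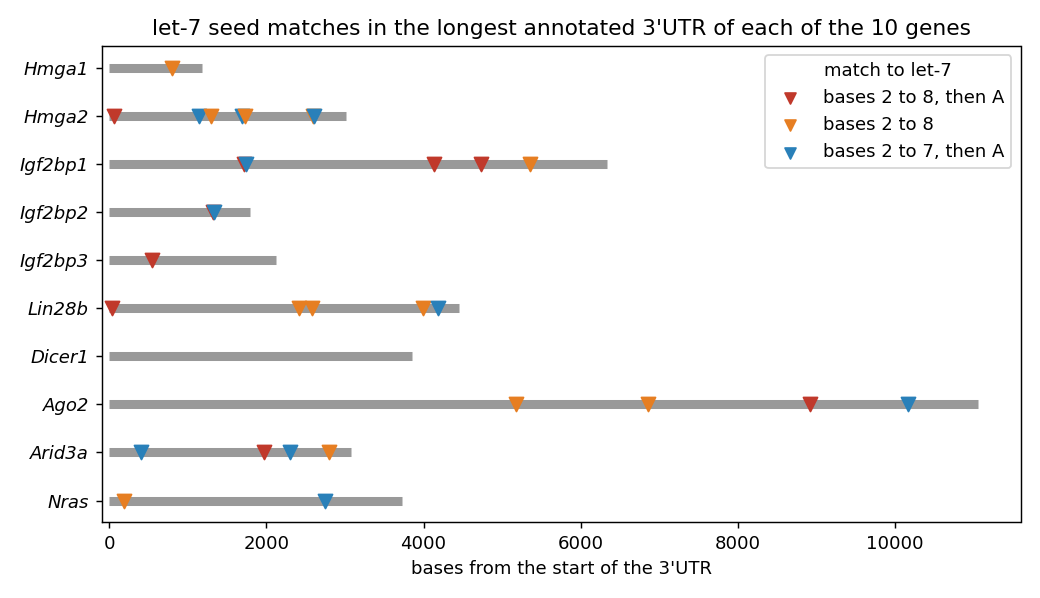
The longest annotated 3′UTR of each of the 10 genes is drawn as a grey bar to scale, with the distance from its start in bases on the x axis and triangles at let-7 matches (red for bases 2 to 8 followed by A, orange for bases 2 to 8, blue for bases 2 to 7 followed by A). Dicer1 has no triangle, Hmga2, Igf2bp1 and Lin28b have the most red and orange ones with 4 each, and Ago2 has the longest bar at 11064 bases.

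The libraries held 40120843 reads assigned to genes for PRP and 34139741 for control. FPKM, the unit of the deposited values, is a read number scaled to the length of the exons and to the depth of the library. Levels of different genes can thus be compared roughly. The length takes in the annotated exons of a gene whether or not they are used, so comparisons between genes depend on the annotation. Of the 10 FAP markers, Pdgfra had 19.8 FPKM in PRP and 28.0 in control and Ly6a had 59.9 and 66.4, whereas Lum was near 0 at 0.0815 and 0.0718. Of the 7 myogenic markers listed in the files, Pax7 and Myog were at 0 in both libraries, and the 3 that met a mean of 1 FPKM were Acta1 at 15.1 and 11.1 FPKM, Ckm at 3.56 and 3.72 and Des at 2.91 and 3.39. Their list summed to 21.6 FPKM in PRP and 18.3 in control. Of 8 macrophage markers, Ptprc was at 0.0109 and 0.0192 FPKM, while Cd68 was higher in PRP at 4.56 against 2.31 and Lyz2 lower at 4.91 against 7.57, and the list summed to 11.2 FPKM in each library. Of 7 endothelial markers, Cldn5 was at 0 in both libraries and Pecam1 at 0.188 and 0.0470 FPKM, while Kdr was higher in PRP at 4.23 FPKM with a ratio of 2.82 (2.43 to 3.28) and Tek at 4.73 against 3.56, with a sum of 9.59 against 5.46. The 8 platelet markers summed to 2.95 and 2.54 FPKM, and Gp9 and Ppbp were at 0 in both libraries. In bulk RNA, fewer cells of a type and less RNA per cell cannot be told apart. All 9 FAP markers with a mean of at least 1 FPKM were lower in PRP, with a summed level over the 10 markers of 404.5 against 658.7 FPKM. Of 10 proliferation markers 9 were lower in PRP, with a summed level of 115.0 against 158.6 FPKM. Of 10 adipocyte markers 7 met the same minimum, 5 higher and 2 lower in PRP, with a summed level of 140.7 against 145.5 FPKM. The part of these differences in the values below was not tested.

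In levels the 10 genes spanned the range from one of the most abundant messages to one at the detection limit. The order of the top 5 was the same in both libraries, namely Hmga1, Igf2bp2, Hmga2, Nras and Ago2. Hmga1 stood above 98.9% of the genes detected in PRP and above 98.2% of those in control, and Igf2bp2 stood above 90.5% and 89.5%. Each of the first 4 genes differed from the next lower one by more than the 95% Poisson counting intervals of both levels. In PRP, the intervals of the neighbours Ago2 and Arid3a, Arid3a and Igf2bp3, and Igf2bp3 and Dicer1 overlapped, so their order is not fixed by these counts. In control the same was true of Dicer1 and Igf2bp3 and of Igf2bp3 and Arid3a. Igf2bp1 and Lin28b came last in both libraries.

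**Figure D2:**
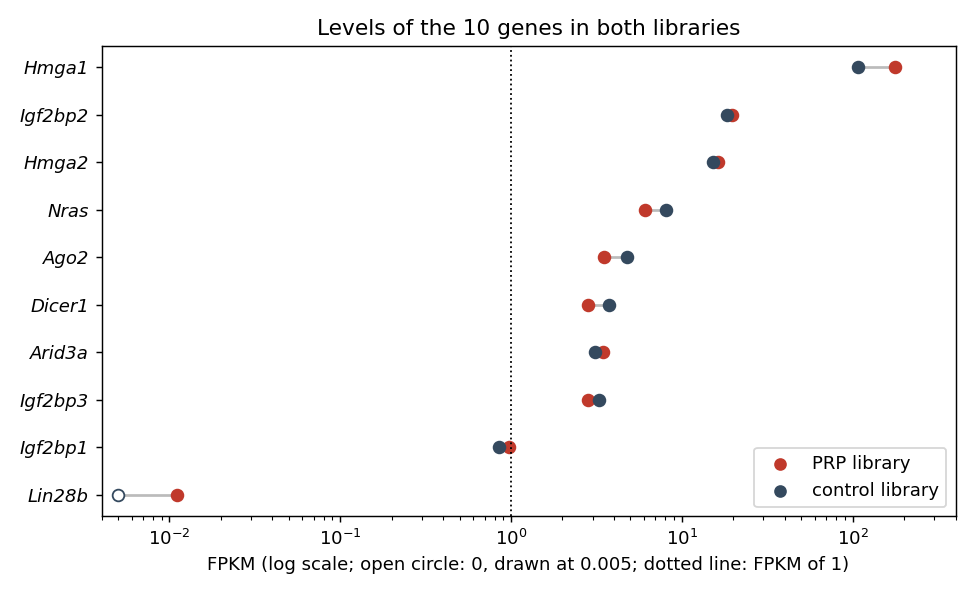
The FPKM of each of the 10 genes is plotted on a log axis, with a red point for the PRP library and a dark point for the control library, the open circle standing for a value of 0 and the dotted line for 1 FPKM. Hmga1 is highest in both libraries and has the widest gap among genes above the line, at 176 against 108 FPKM, and Lin28b is the only gene with a library at 0.

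A mean of at least 1 FPKM over the libraries was asked for before a log2 fold change was counted, and 8 of the 10 genes met it. Igf2bp1 and Lin28b did not. The fold change was the difference of log2(FPKM + 1), PRP minus control, which makes changes of weakly expressed genes look smaller than they are. None of the 8 differed by at least 2-fold, against 2.83% of all 13401 genes that met the same minimum. Hmga1 was at least 1.5-fold higher in PRP, as were 6.15% of all genes. The median log2 fold change of the 8 genes was -0.03, with a range from -0.35 to 0.70, and 4 were higher and 4 lower in PRP. The median of all 13401 genes was 0.01, and the middle 95% of them lay between -0.74 and 0.89. With 1 library per group no difference has a replicate check and no test of the treatment was possible.

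To set each difference against counting error, an exact 95% binomial interval (Clopper-Pearson) of the ratio of PRP to control was computed from the reads behind the values. These intervals cover counting error only and compare the libraries, not the treatments. Of the 8 genes that met the minimum, the interval lay above 1 for 3, Hmga1, Hmga2 and Igf2bp2, and an interval above 1 was found for 26.1% of the 12372 genes for which one could be computed. It lay below 1 for 4 of the 8 genes, Igf2bp3, Dicer1, Ago2 and Nras, against 26.1% of all genes. It included 1 for Arid3a, and for Igf2bp1 and Lin28b below the minimum. With 8 genes, chosen by name, these shares are a description only.

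Hmga1 (ENSMUSG00000046711, chr17:27556497-27563674, plus strand) encodes an AT-hook protein that bends DNA and opens chromatin in proliferating cells. It had 176 FPKM in PRP, from 15005 reads, and 108 FPKM in control, from 7830 reads. The PRP library was thus the higher one, with a ratio of 1.63 (95% counting interval 1.57 to 1.70) and a log2 fold change of 0.70. Of all genes tested, 95.8% had a lower log2 fold change, and Hmga1 showed the largest absolute change of the 8 genes. Its near copy Hmga1b on chromosome 11, 99.8% identical over 1602 bases of transcript, had 10.1 against 6.63 FPKM and a ratio of 1.53 (1.27 to 1.84). Reads that fit both copies could have been given to either or left out. The sum of both was 186.1 FPKM in PRP and 114.6 in control, a ratio of 1.62. Of the proliferation markers 9 of 10 were lower in the library in which Hmga1 was higher, and their part in this difference was not tested. A further 5.84% of the Hmga1 exon length is shared with genes on the opposite strand.

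Hmga2 (ENSMUSG00000056758, chr10:120361275-120476469, minus strand), the related protein of embryonic and progenitor cells, had 16.4 FPKM in PRP from 4451 reads and 15.1 FPKM in control from 3494 reads. The ratio was 1.08 (1.02 to 1.15) and the log2 fold change 0.11, well inside the range of most genes. Hmga2 carries 4 CTACCTC matches in its 3′UTR and 3 of the shorter TACCTCA, while Hmga1 carries 1 and 0. The interval of Hmga1 lay wholly above that of Hmga2, and the part of the matches in this difference was not tested. Within the library, Hmga1 was 10.7 times as high as Hmga2 in PRP and 7.14 times in control. Hmga2 therefore made up 8.09% of the summed HMGA level in PRP and 11.7% in control, while Hmga1 made up 86.9% and 83.2%.

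The IGF2BP proteins bind messenger RNAs, among them that of the growth factor IGF2, and affect their stability, transport and translation. Igf2bp2 (ENSMUSG00000033581, chr16:22059009-22163299, minus strand), the member that is kept in adult tissues, was the main one in these cells. It had 19.7 FPKM in PRP from 5858 reads and 18.3 FPKM in control from 4614 reads. The libraries were close, with a ratio of 1.08 (1.02 to 1.14) and a log2 fold change of 0.11. Igf2bp2 made up 83.8% of the summed IGF2BP level in PRP and 81.5% in control.

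Igf2bp3 (ENSMUSG00000029814, chr6:49085223-49214957, minus strand), known as an oncofetal gene, had 2.83 FPKM in PRP from 927 reads and 3.29 FPKM in control from 917 reads. It was lower in PRP, with a ratio of 0.860 (0.754 to 0.981) and a log2 fold change of -0.16. Of its exon length 18.7% overlaps Malsu1 on the opposite strand, which had 2.80 and 2.92 FPKM. The kit was stranded, but the strand setting of the counting is not given in the sources used here, so reads of both genes may not have been told apart. Igf2bp1 (ENSMUSG00000013415, chr11:95957163-96005940, minus strand), the other oncofetal member, had 0.978 FPKM in PRP from 380 reads and 0.850 FPKM in control from 281 reads. Its ratio of 1.15 had an interval from 0.920 to 1.44, so a difference was not detectable at this depth. The 3 genes summed to 23.5 FPKM in PRP and 22.4 in control, a ratio of 1.05, and the ratio of Igf2bp2 to Igf2bp3 was 6.97 in PRP and 5.55 in control.

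Lin28b (ENSMUSG00000063804, chr10:45376620-45486395, minus strand), the RNA-binding protein that holds back let-7 processing, was at the detection limit. It had 0.0110 FPKM in PRP from 4 reads and 0 in control. Both values lie at or under the floor of 3 fragments, that is 6 reads, so no fold is given. For the length of Lin28b that floor is 0.0165 FPKM in PRP and 0.0194 FPKM in control. Its relative Lin28a had 0 reads in PRP and 1 read in control. No LIN28 message was thus measurable above the floor in either library.

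Dicer1 (ENSMUSG00000041415, chr12:104687742-104751952, minus strand), the enzyme that cuts microRNA precursors to their mature length, had 2.83 FPKM in PRP and 3.76 FPKM in control. The reads behind these values, 1902 and 2153, were worked out from the ratio of the values, since the annotated exon length of 16750 bases did not give whole reads and 16761 bases did. Dicer1 was lower in PRP with a ratio of 0.752 (0.688 to 0.821) and a log2 fold change of -0.31, and 14.4% of all tested genes had a lower one. Drosha, the nuclear enzyme that acts before Dicer, had 19.4 and 18.6 FPKM, a ratio of 1.04 (0.980 to 1.11). The level of Drosha was 6.85 times that of Dicer1 in PRP and 4.94 times in control.

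Ago2 (ENSMUSG00000036698, chr15:73095844-73184935, minus strand), the Argonaute that can cut its target, had 3.52 FPKM in PRP from 1981 reads and 4.76 FPKM in control from 2280 reads. It too was lower in PRP, with a ratio of 0.739 (0.678 to 0.806) and a log2 fold change of -0.35. The ratio of Ago2 to Dicer1 was 1.24 in PRP and 1.27 in control, so both were lower to a like extent. The other Argonautes did not all share this direction. Ago1 had 2.52 and 3.06 FPKM with a ratio of 0.823 (0.717 to 0.945). Ago3 had 2.44 and 2.06 FPKM with a ratio of 1.19 (1.06 to 1.32), higher in PRP. Ago4 was below the minimum, at 0.563 and 0.540 FPKM. Ago2 made up 38.9% of the summed Argonaute level in PRP and 45.7% in control, and the sum was 9.04 against 10.4 FPKM.

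Arid3a (ENSMUSG00000019564, chr10:79927043-79955018, plus strand), a DNA-binding protein that works with E2F factors, had 3.43 FPKM in PRP from 766 reads and 3.11 FPKM in control from 590 reads. Its ratio of 1.10 had an interval from 0.947 to 1.29, and the log2 fold change was 0.11. A difference was therefore not detectable at this depth. Its relative Arid3b, also known as a let-7 target, had 0.359 and 0.316 FPKM, and Arid3c had 3 and 2 reads. Arid3a made up 89.5% of the summed ARID3 level in PRP and 89.9% in control.

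Nras (ENSMUSG00000027852, chr3:103058285-103067914, plus strand), a small GTPase of growth factor signalling, had 6.09 FPKM in PRP from 1303 reads and 8.07 FPKM in control from 1468 reads. It was lower in PRP, with a ratio of 0.755 (0.679 to 0.840) and a log2 fold change of -0.35. That was the lowest of the 8 genes on the log2(FPKM + 1) scale only. The FPKM ratios of Ago2 at 0.739 and Dicer1 at 0.752 were slightly lower. Over 172 bases its transcript matched, in reverse orientation, that of Slc3a2 on chromosome 19 at 95.3% identity. Slc3a2 had 94.1 FPKM in PRP and 43.8 in control. Its relative Hras had 13.7 and 13.2 FPKM with a ratio of 1.04 (0.953 to 1.15), an interval that lay wholly above that of Nras and included 1. Of the more distant relatives, Rras2 had 40.7 and 30.8 FPKM with a ratio of 1.32 (1.25 to 1.40). Mras had 7.91 and 6.41 FPKM with a ratio of 1.24 (1.11 to 1.38). Both were higher in PRP, while Rras had 25.9 and 26.6 FPKM with an interval from 0.865 to 1.10.

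**Figure D3:**
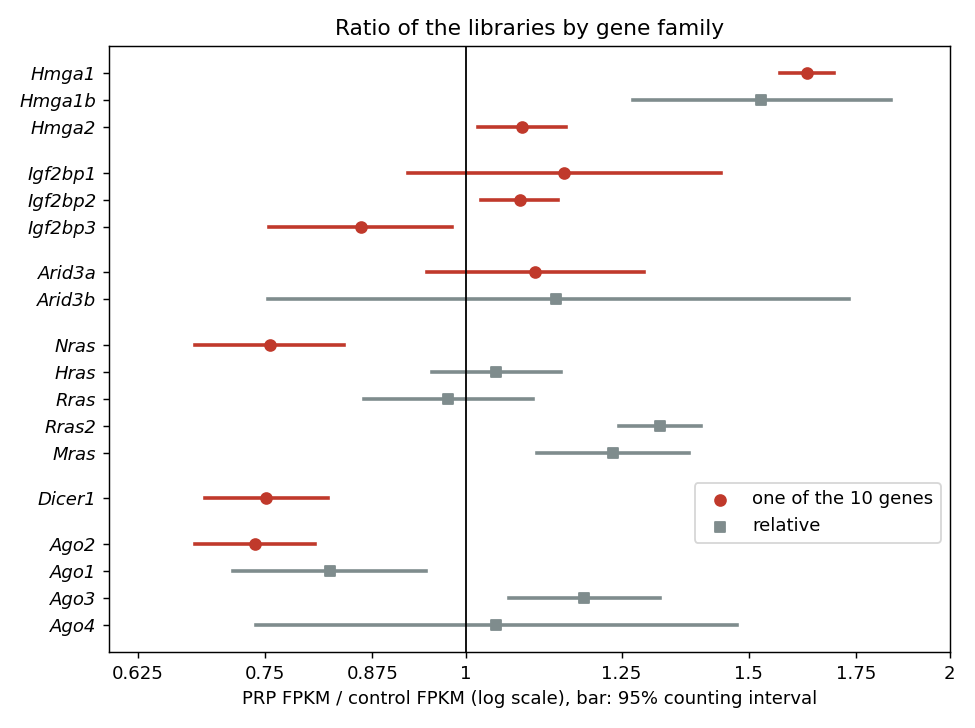
The ratio of PRP to control FPKM is plotted on a log axis for 9 of the 10 genes and their relatives, grouped by family, with red circles for the chosen genes, grey squares for the relatives and bars for the exact 95% counting interval. Hmga1 and Hmga1b lie farthest right at 1.63 and 1.53, Ago2, Dicer1 and Nras lie left of 1 between 0.739 and 0.755, and Lin28b, Lin28a and Arid3c are not drawn because of their few reads.

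The 10 genes were then set beside the other genes of their pathways. Of 12 microRNA biogenesis genes all met the minimum, and 5 were higher and 7 lower in PRP, with a median log2 fold change of -0.06. The counting interval lay below 1 for 6 of them and above 1 for 2, against 26.1% of all genes in each direction. The largest differences were those of Khsrp, which helps to process let-7 precursors, at 8.18 and 12.0 FPKM with a ratio of 0.679 (0.614 to 0.750), and of the Dicer partner Tarbp2, at 2.48 and 3.81 FPKM with a ratio of 0.650 (0.544 to 0.775). Adar, which edits double-stranded RNA, had 12.1 and 8.58 FPKM with a ratio of 1.41 (1.31 to 1.52), and shares 16.8% of its exon length with a gene on the opposite strand. Dicer1 and Tarbp2 were thus both lower in PRP. The partners in the first processing step, Drosha and Dgcr8, and the export factor Xpo5 had intervals that included 1, with ratios of 1.04, 0.955 and 1.05. Of the other genes of this list, Ddx5 had a ratio of 0.799 (0.781 to 0.819) and Ddx17 of 0.930 (0.897 to 0.963). Srrt at 0.955 (0.927 to 0.985) and Prkra at 0.697 (0.509 to 0.952) lay below 1 as well. Hnrnpa1 lay above 1 at 1.09 (1.06 to 1.11), and the interval of Ran at 1.03 included 1.

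Of 7 genes of let-7 turnover 5 met the minimum, with a median of 0.09. The counting interval lay above 1 for 3 of them and below 1 for 0, against 26.1% of all genes in each direction. Dis3l2, the nuclease that degrades let-7 precursors tailed with uridines, had 1.80 FPKM in PRP and 1.18 in control, a ratio of 1.52 (1.26 to 1.84). Tut1 had a ratio of 1.19 (1.07 to 1.32), and Tent2 a ratio of 0.866 with an interval that included 1. Of 23 genes of the silencing complex, the other Argonautes included, 21 met the minimum, and 8 were higher and 13 lower with a median of -0.06. Their counting interval lay below 1 for 10 and above 1 for 6, against the same 26.1% of all genes in each direction. The decapping enzyme Dcp2 had 5.59 and 3.38 FPKM, a ratio of 1.66 (1.49 to 1.85). Tnrc6b, a scaffold that binds Argonautes, had 2.38 and 3.18 FPKM, a ratio of 0.749 (0.691 to 0.812). Cnot1, the scaffold of the deadenylase complex, had 7.70 and 9.44 FPKM, a ratio of 0.816 (0.773 to 0.861). Ago2 was thus lower together with Ago1, Tnrc6b and Cnot1, in a list with members in both directions.

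Other known let-7 targets were listed from general knowledge, 49 in number, and 35 met the minimum. Tgfbr3 in this list is an exception, as the study itself reports it as a new target of let-7f-5p and miR-16-5p. Of these 12 were higher and 23 lower in PRP, with a median of -0.17, and 2 were at least 1.5-fold higher and 6 at least 1.5-fold lower. Of all genes, 6.15% were at least 1.5-fold higher and 4.57% at least 1.5-fold lower. On the log2(FPKM + 1) scale of these counts none of the 35 reached 2-fold. The counting interval lay below 1 for 19 of the 35 and above 1 for 7, against 26.1% of all genes in each direction. Of the 49 genes 32 held CTACCTC in the 3′UTR. The 3 largest differences were lower values in PRP, of the collagen gene Col3a1 at 26.9 and 53.7 FPKM, of the activin receptor gene Acvr2a at 2.38 and 5.43 FPKM, and of the TGFβ co-receptor gene Tgfbr3 at 7.64 and 15.4 FPKM. Their ratios of FPKM without a pseudocount were 0.501, 0.437 and 0.494, so Acvr2a and Tgfbr3 passed 2-fold on that scale. Col3a1 is also one of the FAP markers, all of which were lower. Per its text, the study arrived at Tgfbr3 by crossing a transcriptome of FAPs given PRP exosomes or vehicle with target prediction. The lower Tgfbr3 value is thus not independent of its place in the list. The list includes genes that the study followed in these samples and it shares Hras, Arid3b and Lin28a with the families above, so it is not independent evidence of a direction. The transcription factor gene Myc, named after its values were seen, had the largest difference in the other direction, with 10.4 and 5.83 FPKM and a ratio of 1.79 (1.54 to 2.07).

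The IGF2BP family takes its name from the message of IGF2. Of 11 genes of the IGF2 axis 2 were higher and 9 lower in PRP, with a median of -0.26. The counting interval lay below 1 for 8 of the 11 and above 1 for 1, against 26.1% of all genes in each direction. Of the 11, 4 genes, Igf1, Igf1r, Insr and Irs2, are also among the known let-7 targets just described. Igfbp5, which binds IGF in the extracellular space, had 1.39 FPKM in PRP and 6.54 in control, a ratio of 0.213 (0.179 to 0.253). The noncoding RNA H19, the neighbour of Igf2, had 7.88 and 19.3 FPKM, a ratio of 0.408 (0.363 to 0.459). The growth factor gene Igf1 had 2.54 and 5.17 FPKM, a ratio of 0.491 (0.439 to 0.548). Igf2 itself was listed at 1.57 and 1.98 FPKM, a ratio of 0.794 (0.644 to 0.977). Of its exon length 62.8% is shared with genes on the same strand, so reads may have been left out or given to another gene and the level may be too low. The IGF2BP genes had ratios from 0.860 to 1.15. Igfbp5, H19 and Igf1 were named as the largest changes of this list, so no comparison of their distance from 1 is drawn. The interval of Igf2 overlapped that of Igf2bp3, which ran from 0.754 to 0.981.

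**Figure D4:**
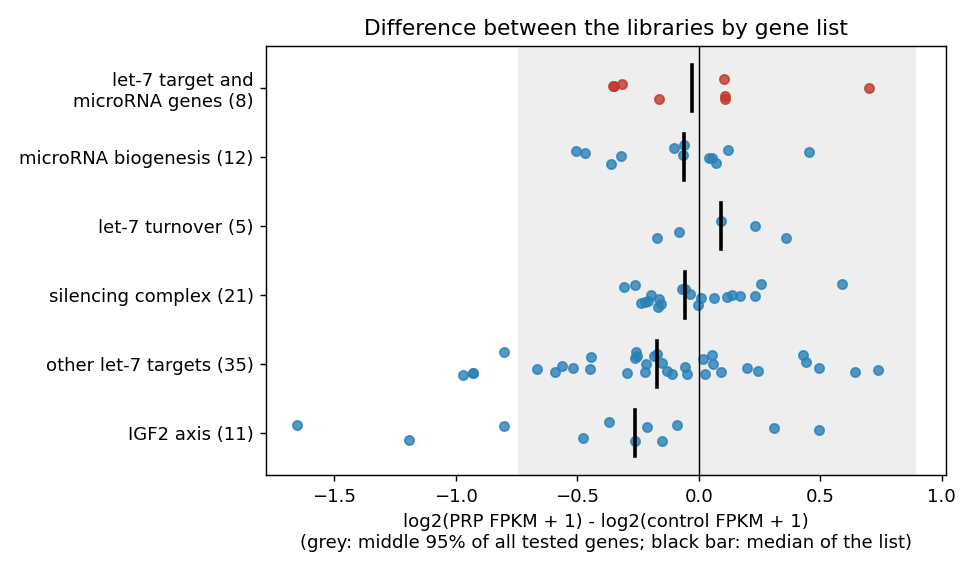
The difference of log2(FPKM + 1), PRP minus control, is plotted for each gene that met the minimum, with the chosen genes in red in the top row, 5 pathway lists in blue below, black bars at the list medians and the middle 95% of all 13401 genes in grey; the vertical scatter within a row has no meaning. The chosen genes lie between -0.35 and 0.70 inside the grey band, and their median of -0.03 lies next to that of all genes, while the IGF2 axis reaches furthest left.

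Lastly, genes that met the minimum and had an annotated 3′UTR were grouped by their number of CTACCTC matches. The shorter TACCTCA was not counted here, and 7.81% of these genes held it outside the longest match. Of the 10 genes, the 8 that met the minimum could be placed among all others. Igf2bp1 and Lin28b, with 4 matches each, are in no group. The median log2 fold change was 0.00 for 9274 genes without CTACCTC, of which 4668 were higher and 4606 lower, and these include Dicer1. It was -0.05 for 897 genes with 1 match, of which 389 were higher and 508 lower, and these include Hmga1, Igf2bp2, Igf2bp3 and Nras. It was -0.02 for 105 genes with 2 matches, 49 higher and 56 lower, including Arid3a. It was -0.06 for 11 genes with 3 or more, 4 higher and 7 lower, including Hmga2 and Ago2.  The groups also differed in 3′UTR length, with a median of 1042.5 bases without a match and 2194 bases with 1 match, and the part of length in the medians was not tested. The values of the 8 placed genes spread across both directions in these groups. Among genes with 1 match, Hmga1 was the highest of the 4 named at 0.70 and Nras the lowest at -0.35. Among genes with 3 or more, Hmga2 stood at 0.11 and Ago2 at -0.35.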

How the data were processed

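Per the labels, TRIzol RNA went into libraries made with a stranded mRNA kit. Per the submitters' processing notes, reads were trimmed with fastp 0.23.4, aligned to mm10 with STAR 2.5.3a and counted with featureCounts. The deposited values are FPKM per gene as the authors computed them. The annotation release, the strand setting and the way counts became FPKM are not given in the sources used here.

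Identifiers were matched to GENCODE M21 (GRCm38), in which 41492 of 44291 genes (93.7%) had an entry. With the M21 exon lengths, 21322 of 22777 genes above 0 in both libraries (93.6%) came out as whole reads within 0.001 reads, which gave the depth. Even read numbers made up 79.3% and 80.3% of genes with up to 8 reads, as when both mates of a pair are counted, so intervals used reads divided by 2. No count test was run, since each group has 1 library. PCR duplicates could not be removed.

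Genes named are the 10 genes, their paralogs, of which 1 is not reported here, and the 3 largest changes of each list. Drosha, Dgcr8, Xpo5 and the other microRNA biogenesis genes beyond the 3 largest changes were named after their values were seen. So were Igf2, marker genes and genes with many matches. The 10 genes and the lists were chosen with earlier results of these data known. Alternatives were pseudocounts of 0.1 and 5, other filters, scalings and fold thresholds, undivided reads and merged 3′UTRs. Near copies were searched with BLAST+ 2.17.0 (at least 95% identity over 150 bases). Python 3.11.15, NumPy 2.4.6, pandas 2.3.3, SciPy 1.17.1 and matplotlib 3.10.9 were used, and the procedures were tested on simulated data.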

Additional observations from a re-analysis of the deposited data

How the results depend on the processing

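No paired analysis was possible because there is only 1 library in each group, and for the same reason none could be left out. None of the 8 genes differed by 2-fold under any pseudocount, filter or scaling tried, nor by 4-fold, and 1 gene, Hmga1, did at a threshold of 1.5-fold. The median log2 fold change of -0.03 became 0.11 when a mean of at least 5 FPKM was required, which left only Hmga1, Hmga2, Igf2bp2 and Nras. With a pseudocount of 5 the log2 fold changes of Dicer1 at -0.16, Ago2 at -0.20 and Nras at -0.24 lay outside the counting intervals of their ratios. The signs of all 8 genes held in every setting tried. Without a filter Igf2bp1 at 0.10 and Lin28b at 0.02 entered, and the median became 0.06. With reads not divided the interval left out no change for 7 genes, as before. Merging all annotated 3′UTRs of a gene again gave 21 CTACCTC matches. Depth limits Lin28b most, followed by Igf2bp1 and Arid3a. A scaling moved the median of all genes to at most -0.02.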

Other observations

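The libraries were made from messenger RNA and do not measure mature microRNAs, but the files list precursor genes. The 10 let-7 family precursor rows held 36 reads in PRP and 25 in control, with at most 10 and 8 reads in a row. Mirlet7f-1 had 10 and 6 reads. Of the miR-16 precursors, Mir16-1 had 8 and 9 reads and Mir16-2 had 18 reads in PRP and 0 in control. Most of these counts are at or near the floor of 6 reads.

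Besides Hmga2 and Ago2, 9 tested genes held 3 or more CTACCTC matches. Nudt12, which hydrolyses NAD caps and has 7 matches, had 2.75 FPKM in PRP and 2.29 in control. Tmem198b, with 3 matches in 1059 bases, had 3.21 and 6.10 FPKM and a log2 fold change of -0.75. It was the lowest of the 11, and Nudt12, at 0.19, was the highest.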
